A study of Mus musculus with 6 samples.

Results

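The Slc25 genes encode the mitochondrial carrier family, and 47 of the 23366 genes named in the count table carry a symbol of that family, Slc25a followed by a number. The members were taken by symbol alone, but the family was chosen with earlier results of these data known. Their transcripts were compared between Mdr1+ and Mdr1- CD4+ effector T cells, with 3 sequencing libraries of each. All cells were of the FVB/N strain background and had been transferred into Rag-deficient mice, hosts that lack T and B cells of their own, and were recovered from mesenteric lymph nodes 6 weeks after the transfer. Mdr1+ cells were sorted as low, and Mdr1- cells as high, for the dye rhodamine 123 (Rh123), so the group names stand for a dye signal and not for a gene deletion. Rh123 is a cationic dye that the efflux transporter Mdr1 exports and that mitochondria take up along their membrane potential. Neither the age of the mice, the donor cells nor the source of each replicate (single mice or pools) is stated in the labels. P-values here therefore weigh the group difference only against the scatter between these samples, and that scatter may be technical.

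Mitochondrial carriers are small proteins of the inner mitochondrial membrane that pass nucleotides, phosphate, organic acids, amino acids, cofactors and metal ions between the cytosol and the matrix. Most exchange one solute for another, so they couple the respiratory chain, the tricarboxylic acid cycle and heme synthesis to the rest of the cell. Activated T cells remodel their mitochondria as they begin to divide, and carriers for ADP and ATP, aspartate, citrate and folate lie on the routes that supply energy and building blocks for that growth.

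In the deposited table the values of both replicate 3 libraries did not follow the order of the gene names, and they were assigned to the names sorted without regard to case. Their Spearman correlations with the other 4 libraries then were 0.926 to 0.962, against 0.424 to 0.460 as deposited, and the reassignment touched all 47 carriers. Libraries held 2220691 to 20771456 counts in genes, and the Mdr1+ library of replicate 3 was the shallowest. In a principal component analysis of log2 CPM, the library-scaled counts, component 1 carried 59.2% of the variance and set that library apart from the other 5. Without that library alone, edgeR's test without a replicate block called 0 carriers higher and 0 lower. For some results the value without replicate 3 is also given, which leaves out both libraries of that number. Abcb1a, the main gene for Mdr1, averaged 162 ± 26.3 CPM among Mdr1+ samples and 62.8 ± 17.96 CPM among Mdr1- samples (SD, n = 3 per group), and Cd4 was at 1095 to 1114 CPM in Mdr1+ and 1023 to 1124 CPM in Mdr1- libraries. Of 7 dendritic cell markers 2 fell with the replicate block. The 7 summed to 22.9 to 45.3 CPM in Mdr1+ libraries, against 57.5 to 78.1 CPM in Mdr1- libraries. Siglech was at 0 in all libraries except the Mdr1- library of replicate 3, where it was at 0.340 CPM. Zbtb46 overlapped between the groups, at 1.87 to 5.66 CPM in Mdr1+ and 3.29 to 5.02 CPM in Mdr1- libraries. Of 8 myeloid markers 1 fell with the block, and their sum was 0.467 to 6.60 CPM in Mdr1+ libraries, against 3.35, 1.64 and 85.1 CPM in Mdr1- libraries, the last being replicate 3. Csf1r, S100a8 and S100a9 were at 0 in the Mdr1+ libraries. S100a8 and S100a9 were also at 0 in the Mdr1- libraries of replicates 1 and 2, and at 1.36 and 0.509 CPM in replicate 3. Csf1r was at 0.223, 0.259 and 5.09 CPM in Mdr1- libraries. Il1b was at 0, 0.0467 and 3.77 CPM in Mdr1+ libraries, against 0, 0 and 36.7 CPM in Mdr1- libraries. Of 4 stromal and endothelial markers 1 fell, Acta2, and of 6 B cell markers 1 rose with the block. Only 3 dendritic cell, 1 myeloid, 3 stromal and endothelial and 3 B cell markers had enough reads to be tested. Over all tested genes 6.57% fell and 5.81% rose with the block. The sums over B cell markers were 11.1 to 22.8 CPM in Mdr1+ libraries, against 6.58 to 11.1 CPM in Mdr1- libraries. The sums over 10 T cell markers were 6054 to 7030 CPM in Mdr1+ and 5984 to 6947 CPM in Mdr1- libraries. Those over 4 CD8 T and NK cell markers were 15.8 to 22.1 CPM in Mdr1+ and 10.3 to 16.0 CPM in Mdr1- libraries. Most of this sum was Klrb1c, at 14.96 to 20.75 CPM in Mdr1+ and 8.13 to 14.6 CPM in Mdr1- libraries. Cd8b1 went the other way, at 0 to 0.665 CPM in Mdr1+ and 0.781 to 1.56 CPM in Mdr1- libraries. Cd8a overlapped, at 0 to 0.831 CPM in Mdr1+ and 0.558 to 1.19 CPM in Mdr1- libraries. Ncr1 was at most 0.140 CPM in any library. The sums over 4 epithelial markers were 2.83 to 10.9 CPM in Mdr1+ and 3.24 to 7.98 CPM in Mdr1- libraries. The 7 erythroid markers summed to at most 0.332 CPM in Mdr1+ and 0.170 CPM in Mdr1- libraries. The part of these other cells in the carrier results was not tested. In bulk samples of this kind, fewer cells of a type and less RNA per cell cannot be told apart.

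Few carriers differed between the groups by more than the spread of their libraries. Of the 47 members, 38 had enough reads to be tested. In edgeR's quasi-likelihood test, with a threshold of 0.05 on p-values adjusted by Benjamini and Hochberg over all 10897 tested genes, 0 of the 38 carriers passed as higher and 0 as lower in Mdr1+ cells, against a background of 0.275% higher and 1.95% lower over all tested genes. At an unadjusted p under 0.05, 1 member was higher and 3 were lower, where all tested genes gave 4.63% and 7.22%. DESeq2 called 1 member, Slc25a4, lower (adjusted p = 0.0187), with a background of 3.55% lower and 1.04% higher.

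In their deviations from the group means, libraries of the same replicate number resembled each other, least so in replicate 3. The correlations were 0.41, 0.568 and 0.213 for numbers 1, 2 and 3, against -0.361 to 0.0136 between other numbers. A fit with that number as a block called 2 members lower, Slc25a4 and Slc25a24, and 0 higher. Over all tested genes that fit called 6.57% lower and 5.81% higher, so the 5.26% of members called lower is near the background. At an unadjusted p under 0.05 that fit gave 4 members lower and 2 higher, beside 13.1% and 15.1% of all tested genes. The 38 log2 fold changes of Mdr1+ over Mdr1- ran from -0.84 to 0.62 with a median of -0.06, beside a median of 0.04 over all tested genes. Of the 38, 33 lay within 0.5 of 0, or 86.8%, where all tested genes gave 77.8%. For 21 of the 38 the 95% interval of the difference, unadjusted, lay wholly inside a 2-fold change in either direction. The same held for 6295 of all 10897 tested genes.

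**Figure D1:**
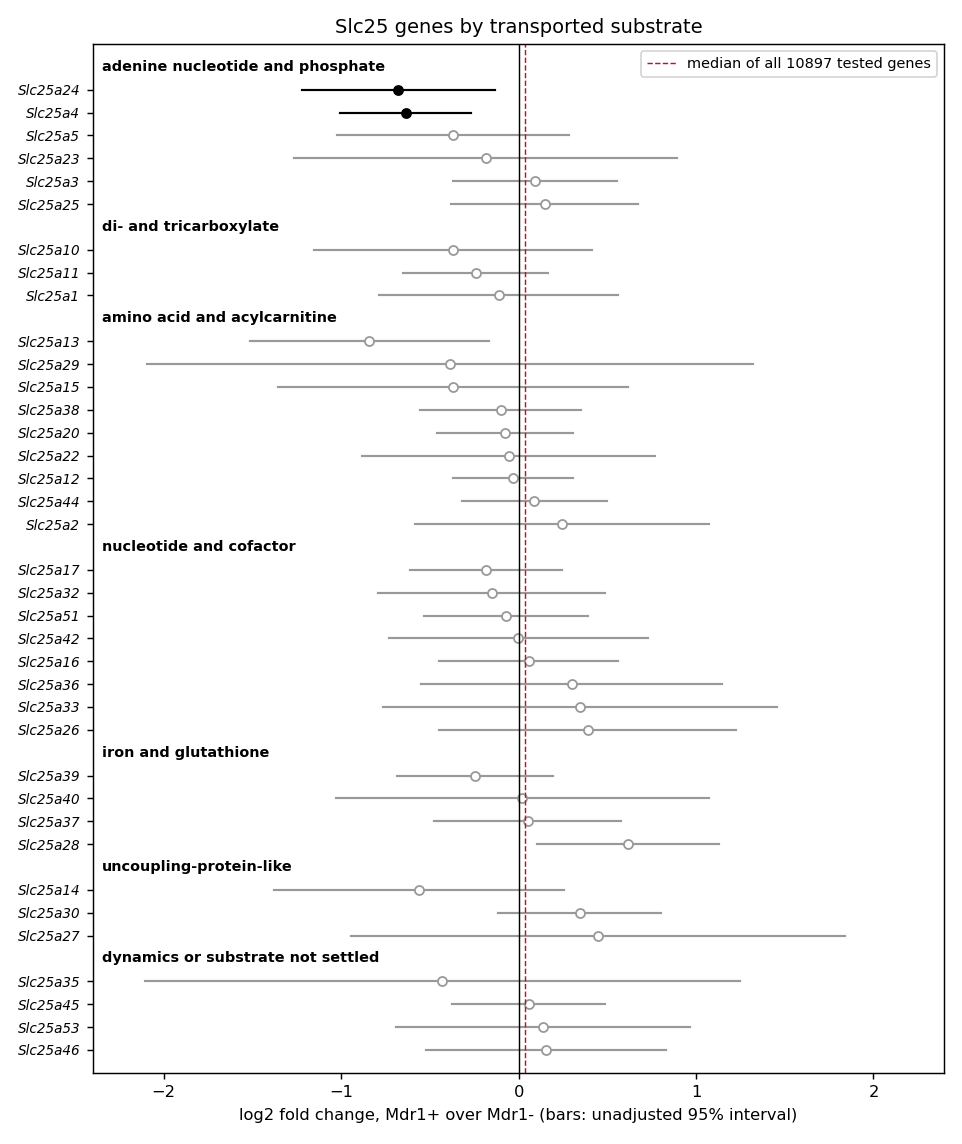
Log2 fold change of Mdr1+ over Mdr1- (x axis) for 37 of the 38 tested Slc25 genes, grouped by substrate (y axis); bars are unadjusted 95% intervals from edgeR, the dashed line is the median of all tested genes, and filled symbols are genes called with the replicate block. Most genes lie close to 0, and the filled ones are Slc25a24 (-0.68) and Slc25a4 (-0.64).

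Summed over all 47 members, TMM-scaled CPM was 1758, 1517 and 1547 in the Mdr1+ libraries of replicates 1, 2 and 3, against 1817, 1588 and 1663 in the Mdr1- libraries. The Mdr1+ library was the lower one at each replicate number, while the groups overlapped. As a share of all gene counts, before that scaling, the family made up 0.166%, 0.156% and 0.148% in Mdr1+ cells and 0.176%, 0.174% and 0.167% in Mdr1- cells, without overlap. No test was made of these sums.

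To compare levels between carriers, CPM was divided by the length of each gene's principal transcript in kilobases. On this scale the tested members spanned 0.488 to 219 CPM per kb with a median of 10.3. Slc25a3, the carrier that brings phosphate into the matrix for ATP synthesis, stood highest by a wide margin at 226 CPM per kb in Mdr1+ and 212 CPM per kb in Mdr1- cells, and it supplied 18.7% to 24.9% of the family's summed CPM in each library. Next came Slc25a4, an ADP/ATP exchanger, at 50.5 CPM per kb in Mdr1+ and 78.7 CPM per kb in Mdr1- cells. Slc25a11, the oxoglutarate and malate exchanger, followed at 35.8 CPM per kb in Mdr1+ and 42.3 CPM per kb in Mdr1- cells. Slc25a24, a calcium-regulated carrier of ATP-Mg and phosphate, was at 22.2 CPM per kb in Mdr1+ and 35.4 CPM per kb in Mdr1- cells. Slc25a28, the iron carrier mitoferrin 2, completed the top 5 with 31.6 CPM per kb in Mdr1+ and 20.3 CPM per kb in Mdr1- cells. Slc25a20, the carnitine and acylcarnitine carrier, had a mean level over all libraries of 24.7 CPM per kb, close to the 25.9 CPM per kb of Slc25a28, and the libraries of this pair overlapped.

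**Figure D2:**
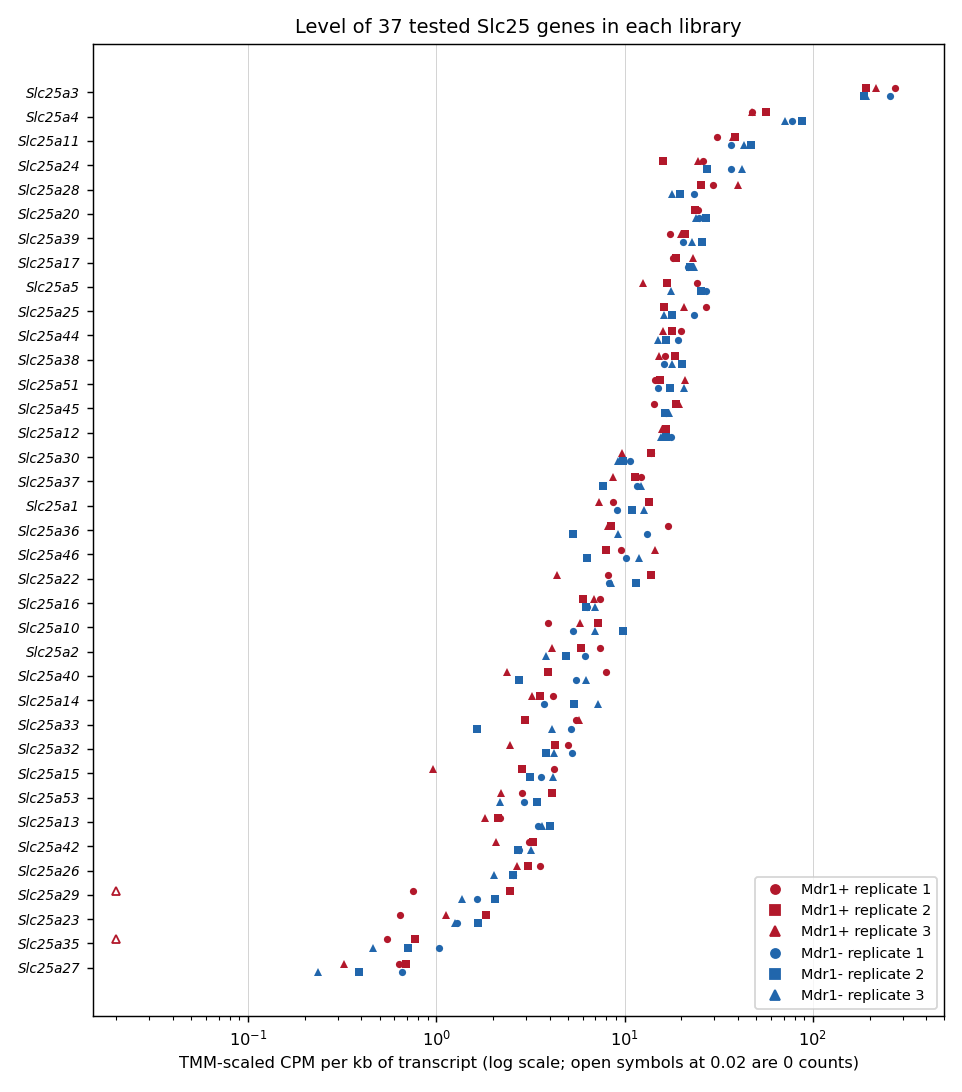
TMM-scaled CPM per kb of principal transcript (x axis, log scale) of 37 of the 38 tested Slc25 genes (y axis, ordered by mean level) in each Mdr1+ and Mdr1- library; open symbols mark libraries with 0 counts. Slc25a3 is far above the rest, and for most genes the red and blue symbols are mixed.

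Slc25a5, the ADP/ATP exchanger that many dividing cells use, ranked number 10, at 17.9 CPM per kb in Mdr1+ and 23.4 CPM per kb in Mdr1- cells. Its level is uncertain, because 46.6% of all 50-base stretches of its transcript also occur in transcripts of 9 other annotated genes, and reads without a unique position were left out of the counts. Among the other members the largest such share was 12.6%, in Slc25a33. The 9 members that were too low to test were Slc25a18, Slc25a21, Slc25a31, Slc25a34, Slc25a41, Slc25a43, Slc25a47, Slc25a48 and Slc25a54. Of these, Slc25a21, Slc25a31, Slc25a41, Slc25a48 and Slc25a54 had 0 counts in all 6 libraries, which allows up to 0.144 CPM in the deepest library and 1.35 CPM in the shallowest (3 counts of the total; counting error only). Slc25a31 is the ADP/ATP exchanger of male germ cells, and Slc25a21 carries oxodicarboxylates. Slc25a47, known from liver, was the best covered of the 9 with 0 to 26 counts per library.

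Slc25a4, also called Ant1, passed with the block and was the member nearest to the threshold without it. It had 91.7, 108.1 and 92.0 CPM in Mdr1+ cells, against 150.0, 167.8 and 136.9 CPM in Mdr1- cells (replicates 1, 2 and 3). All 3 Mdr1+ libraries were below all 3 Mdr1- libraries. Means were 97.3 ± 9.4 CPM among Mdr1+ samples and 152 ± 15.6 CPM among Mdr1- samples (SD, n = 3 per group), a log2 fold change of -0.64 ± 0.16 (SE; edgeR adjusted p = 0.106, and 0.0033 with the block). The ratios within replicate numbers 1, 2 and 3 were 0.611, 0.644 and 0.672. Without replicate 3 the fit with the block gave -0.70 (adjusted p = 0.0016).

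Slc25a24 showed a difference of like size with a wider spread. It had 90.1, 54.7 and 83.9 CPM in Mdr1+ cells, against 126.9, 93.7 and 143.5 CPM in Mdr1- cells. The highest Mdr1+ library was just under the lowest Mdr1- library, and replicate 2 was lowest in each group. The log2 fold change was -0.68 ± 0.24 (edgeR adjusted p = 0.283 without the block, 0.0050 with it, and DESeq2 adjusted p = 0.174), with ratios of 0.710, 0.584 and 0.585 within replicate numbers. With the block, it also passed after leaving out any 1 replicate number, with adjusted p = 0.00057 to 0.016.

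Another 3 members had no overlap between the groups without being called in either fit. Slc25a13, also called citrin, exchanges aspartate from the matrix for cytosolic glutamate and takes part in the malate-aspartate shuttle. It had 6.81, 6.68 and 5.66 CPM in Mdr1+ cells, against 10.8, 12.5 and 11.4 CPM in Mdr1- cells, with 12 counts in the shallowest library. Its log2 fold change of -0.84 ± 0.30 was the lowest of the family (edgeR adjusted p = 0.283, and 0.088 with the block). With the block Slc25a13 passed once replicate 3 was left out (-0.85, adjusted p = 0.018), a setting that called 1347 genes lower over all genes.

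Slc25a28, which brings iron into the matrix, was the highest of the family in fold change. It had 45.2, 38.9 and 61.3 CPM in Mdr1+ cells, against 35.8, 30.3 and 27.5 CPM in Mdr1- cells. The Mdr1+ libraries were all above the Mdr1- libraries, with the largest gap in replicate 3. The log2 fold change was 0.62 ± 0.23 (edgeR adjusted p = 0.304, and 0.075 with the block), and it was 0.32 with the block when replicate 3 was left out (adjusted p = 0.083). Slc25a26, which imports the methyl donor S-adenosylmethionine, had 6.81, 5.94 and 5.19 CPM in Mdr1+ cells, against 4.91, 4.93 and 3.91 CPM in Mdr1- cells. Its log2 fold change of 0.39 ± 0.37 did not pass (edgeR adjusted p = 0.747, and 0.562 with the block), and it rests on 11 counts in the shallowest library.

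Over all tested genes 11.0% were lower and 8.71% higher in Mdr1+ cells without overlap, beside 3 and 2 of the 38 carriers. For each of these 5 genes the exact two-sided permutation p on CPM was 0.1, the smallest that 3 against 3 samples allow. Any gene without overlap gets this value, so it adds nothing to the lack of overlap by which they were picked.

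**Figure D3:**
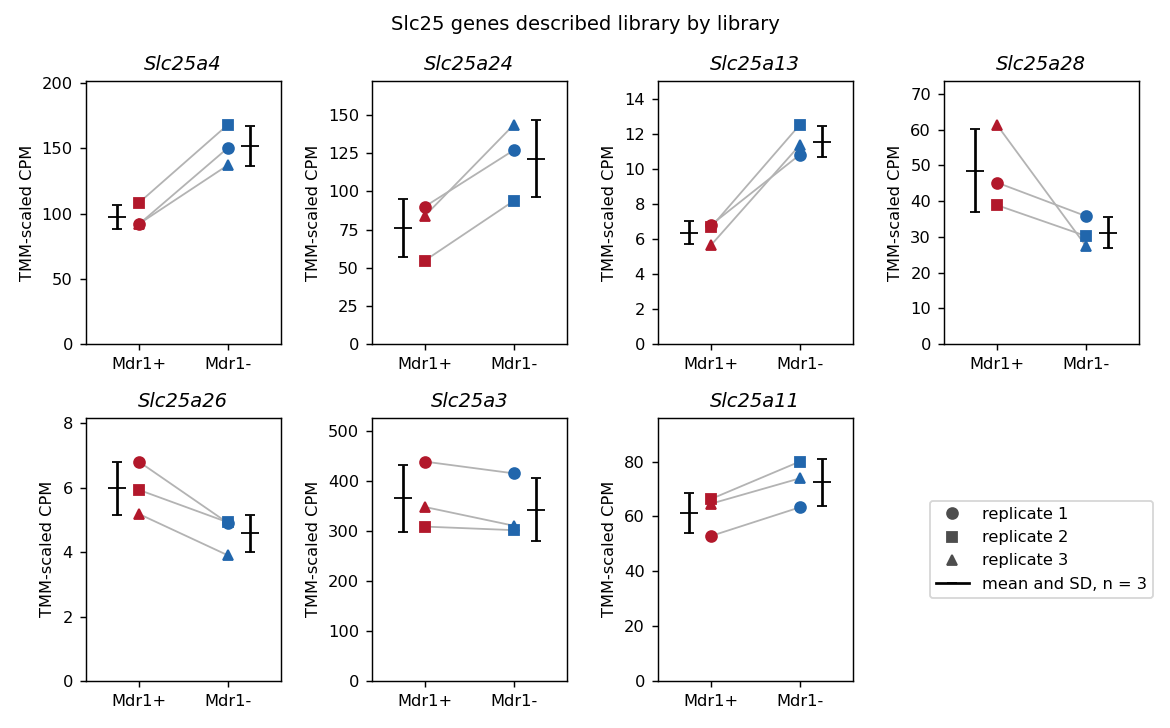
TMM-scaled CPM on a linear y axis that starts at 0, for 7 Slc25 genes, Mdr1+ left and Mdr1- right; each symbol is 1 library, grey lines connect libraries that share a number, and black bars give mean and SD over 3 libraries. Slc25a4, Slc25a24 and Slc25a13 are lower and Slc25a28 and Slc25a26 higher in Mdr1+ cells in all 3 pairs without overlap, while Slc25a3 and Slc25a11 overlap.

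The stretches upstream of the 4 carriers with the largest differences without overlap are shown because these genes differ in opposite directions, Slc25a4, Slc25a24 and Slc25a13 being lower and Slc25a28 higher in Mdr1+ cells. Each is the 250 bases before the annotated start, 5′ to 3′ in the direction of the gene, from RefSeq on GRCm38.p6, which is a later build than the mm9 named for the counts. Capitals mark matches, on either strand, to 3 motifs: the CCAAT box (CCAAT), the TATA box (TATAAA) and TTTNGCGC for E2F factors of the cell cycle.
Slc25a4, chr8:46211063-46211312, minus strand: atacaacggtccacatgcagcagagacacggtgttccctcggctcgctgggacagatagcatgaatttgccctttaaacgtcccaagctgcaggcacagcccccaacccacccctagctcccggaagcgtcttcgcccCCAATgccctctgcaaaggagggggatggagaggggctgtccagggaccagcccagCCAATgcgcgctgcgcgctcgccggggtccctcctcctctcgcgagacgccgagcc
Slc25a24, chr3:109122899-109123148, plus strand: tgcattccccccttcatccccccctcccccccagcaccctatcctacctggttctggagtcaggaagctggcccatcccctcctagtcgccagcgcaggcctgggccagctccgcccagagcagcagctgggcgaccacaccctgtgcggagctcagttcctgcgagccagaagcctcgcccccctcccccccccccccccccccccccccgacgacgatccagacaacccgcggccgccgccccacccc
Slc25a13, chr6:6217174-6217423, minus strand: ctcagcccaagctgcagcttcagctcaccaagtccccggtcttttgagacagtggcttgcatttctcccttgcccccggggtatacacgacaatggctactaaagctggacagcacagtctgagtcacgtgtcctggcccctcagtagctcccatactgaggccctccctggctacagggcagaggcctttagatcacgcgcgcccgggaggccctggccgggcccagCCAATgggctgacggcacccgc
Slc25a28, chr19:43674882-43675131, minus strand: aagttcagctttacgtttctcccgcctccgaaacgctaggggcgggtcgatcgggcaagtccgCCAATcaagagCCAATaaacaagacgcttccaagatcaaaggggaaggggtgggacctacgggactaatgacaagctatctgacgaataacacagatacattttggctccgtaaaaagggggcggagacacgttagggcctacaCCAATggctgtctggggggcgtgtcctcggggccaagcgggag

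All capitals in these stretches are CCAAT boxes, with 2 in Slc25a4, 1 in Slc25a13, 3 in Slc25a28 and 0 in Slc25a24. Of the 47 members, 36 had at least 1 stretch in the table. The CCAAT box lay in 18 of these 36 carriers, and in 33.8% of all 32851 stretches of the same length. TATA matches lay upstream of 2 carriers, against 12.4% of all stretches. E2F matches lay upstream of 0 of the 36, against 1.13% of all stretches. Some carriers have more than 1 stretch in the table, which raises their chance of a match, and a match by letters is a description only.

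By role, the carriers of adenine nucleotides and phosphate held both members called with the block, of 6 tested, with log2 fold changes of -0.68 to 0.15. Over all tested genes the fit with the block called 6.57% lower. Slc25a5 had 30.1, 20.8 and 15.6 CPM in Mdr1+ cells, against 33.5, 31.5 and 21.9 CPM in Mdr1- cells. The Mdr1+ library was lower at each replicate number while the groups overlapped (-0.37 ± 0.29, edgeR adjusted p = 0.694, and 0.176 with the block). Slc25a3 had 438, 308 and 348 CPM in Mdr1+ cells, against 415, 301 and 310.2 CPM in Mdr1- cells, and the 95% interval of its log2 fold change was -0.37 to 0.55. Leaving out the Mdr1+ library of replicate 1 turned its log2 fold change of 0.09 to -0.11. Slc25a25, a calcium-regulated relative of Slc25a24, averaged 70.1 ± 17.8 CPM among Mdr1+ samples and 63.2 ± 12.1 CPM among Mdr1- samples (SD, n = 3 per group), with a log2 fold change of 0.15 ± 0.23. Slc25a23, the third of these calcium-regulated carriers, was at 4.03 ± 2.02 CPM among Mdr1+ samples and 4.74 ± 0.76 CPM among Mdr1- samples (SD, n = 3 per group).

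The 3 tested carriers of di- and tricarboxylates all had estimates below 0, and none passed in either fit. At an unadjusted p under 0.05, 0 of the 3 passed in edgeR's test, where 7.22% of all tested genes were lower. DESeq2 called 0 of the 3, beside 3.55% of all tested genes called lower. Slc25a11 had 52.8, 66.3 and 64.6 CPM in Mdr1+ cells, against 63.3, 80.0 and 73.9 CPM in Mdr1- cells. Its ratios within replicate numbers were 0.835, 0.829 and 0.875, so each pair showed a similar small difference, and the groups overlapped (-0.24 ± 0.18, edgeR adjusted p = 0.681, and 0.204 with the block). Slc25a10, the dicarboxylate carrier, had a log2 fold change of -0.37 ± 0.35. Slc25a1, which exports citrate for fatty acid synthesis, had one of -0.11 ± 0.30.

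Among 9 tested carriers of amino acids and acylcarnitine, log2 fold changes ran from -0.84 for Slc25a13 to 0.24 for Slc25a2, with a median of -0.07. Slc25a12, also called aralar, carries out the same aspartate and glutamate exchange as Slc25a13 and was one of the steadiest members, with 103.7, 105.9 and 99.98 CPM in Mdr1+ cells, against 112.1, 105.4 and 98.99 CPM in Mdr1- cells. The 95% interval of its log2 fold change was -0.37 to 0.31. Slc25a20, which brings acylcarnitines in for fatty acid oxidation, varied as little, with 42.4 to 43.5 CPM in Mdr1+ cells and 43.0 to 48.2 CPM in Mdr1- cells, and an interval of -0.46 to 0.31. Slc25a44, a carrier of branched-chain amino acids, and Slc25a38, which supplies glycine for heme synthesis, had log2 fold changes of 0.09 ± 0.18 and -0.10 ± 0.20. Slc25a15, the ornithine carrier of the urea cycle, spread most of all tested members that had counts in every library, by 4.38-fold between its highest and lowest, and the lowest was the shallow Mdr1+ library of replicate 3 with 7 counts. In the same library Slc25a29, a carrier of basic amino acids, had 0 counts, while it had 1.49 and 4.86 CPM in the other Mdr1+ libraries and 2.72 to 4.06 CPM in Mdr1- cells.

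All 9 carriers of nucleotides and cofactors were tested, with log2 fold changes of -0.18 to 0.39 and a median of 0.00 to 2 decimals. Slc25a32, the folate carrier that serves mitochondrial one-carbon metabolism, averaged 23.1 ± 7.6 CPM among Mdr1+ samples and 26.2 ± 4.3 CPM among Mdr1- samples (SD, n = 3 per group). Slc25a51, the NAD+ carrier, averaged 75.3 ± 15.4 CPM among Mdr1+ samples and 78.6 ± 12.1 CPM among Mdr1- samples (SD, n = 3 per group). The coenzyme A carrier Slc25a42 averaged 8.998 ± 2.09 CPM among Mdr1+ samples and 9.25 ± 0.82 CPM among Mdr1- samples (SD, n = 3 per group). Slc25a17, the family's member in peroxisomes, had a log2 fold change of -0.18 ± 0.19. Slc25a36, a carrier of pyrimidine nucleotides, had 89.4, 44.5 and 42.9 CPM in Mdr1+ cells, against 68.5, 27.9 and 48.2 CPM in Mdr1- cells. It differed more by replicate number than by group. With the block it passed once replicate 3 was left out (0.50, adjusted p = 0.015), a setting that called 1131 genes higher over all genes.

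Iron and glutathione carriers comprised 4 tested members. Slc25a37, mitoferrin 1, averaged 44.9 ± 7.6 CPM among Mdr1+ samples and 43.8 ± 10.2 CPM among Mdr1- samples (SD, n = 3 per group; log2 fold change 0.05 ± 0.23). Slc25a37 is highly expressed in red cell precursors, and the erythroid gene Alas2 was at 0 CPM in the Mdr1+ libraries and at most 0.170 CPM in the Mdr1- libraries. Slc25a39, a glutathione carrier, was lower in the Mdr1+ library of each pair, with ratios of 0.853, 0.813 and 0.873, and its relative Slc25a40 had a log2 fold change of 0.02 ± 0.46. Of the 3 uncoupling-protein-like carriers, Slc25a30 had 49.7, 49.5 and 34.9 CPM in Mdr1+ cells, against 38.5, 35.2 and 32.9 CPM in Mdr1- cells. It did not pass with all libraries (0.34 ± 0.20, edgeR adjusted p = 0.582, and 0.176 with the block). With the block it was called higher when replicate 3 was left out (0.40, adjusted p = 0.035), as were 1131 genes over all genes. Slc25a14 had 6.41 ± 0.84 CPM among Mdr1+ samples and 9.61 ± 3.08 CPM among Mdr1- samples (SD, n = 3 per group). Slc25a27, the uncoupling-protein-like gene best known from brain, was the lowest tested member per kb, at 0.488 CPM per kb, with 2 to 43 counts per library. The outer membrane protein Slc25a46, which acts in mitochondrial fusion and fission, averaged 46.8 ± 14.99 CPM among Mdr1+ samples and 41.5 ± 12.6 CPM among Mdr1- samples (SD, n = 3 per group).

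For related carriers, 7 pairs chosen after the values were seen, the ratio of CPM per kb in each library is described with no test. The ratio of Slc25a13 to Slc25a12 was 0.134, 0.128 and 0.115 in Mdr1+ cells, against 0.197, 0.242 and 0.234 in Mdr1- cells. Aralar was thus the more abundant of these exchangers everywhere, and the groups did not overlap. The ratio of Slc25a24 to Slc25a25 was 0.973, 0.980 and 1.19 in Mdr1+ cells, against 1.59, 1.52 and 2.58 in Mdr1- cells, again without overlap. Slc25a13 and Slc25a24 had no overlap by themselves. A share of ratios without overlap over other gene pairs was not computed. For single genes, 11.0% were lower and 8.71% higher without overlap over all tested genes.

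For Slc25a30 over Slc25a14 the ratio was 3.33, 3.88 and 3.03 in Mdr1+ cells, against 2.87, 1.82 and 1.27 in Mdr1- cells. Here the Mdr1+ libraries were all higher. Slc25a14 had 12 counts in the shallowest library and did not pass (-0.56 ± 0.36, edgeR adjusted p = 0.623, and 0.394 with the block). Its own ratios of Mdr1+ to Mdr1- within replicate numbers 1, 2 and 3 were 1.11, 0.658 and 0.444. The mitoferrins Slc25a28 and Slc25a37 had ratios of 2.41, 2.24 and 4.59 in Mdr1+ cells, against 2.01, 2.57 and 1.47 in Mdr1- cells, and these overlapped, as did the ratios of Slc25a4 to Slc25a5, Slc25a36 to Slc25a33 and Slc25a39 to Slc25a40.

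**Figure D4:**
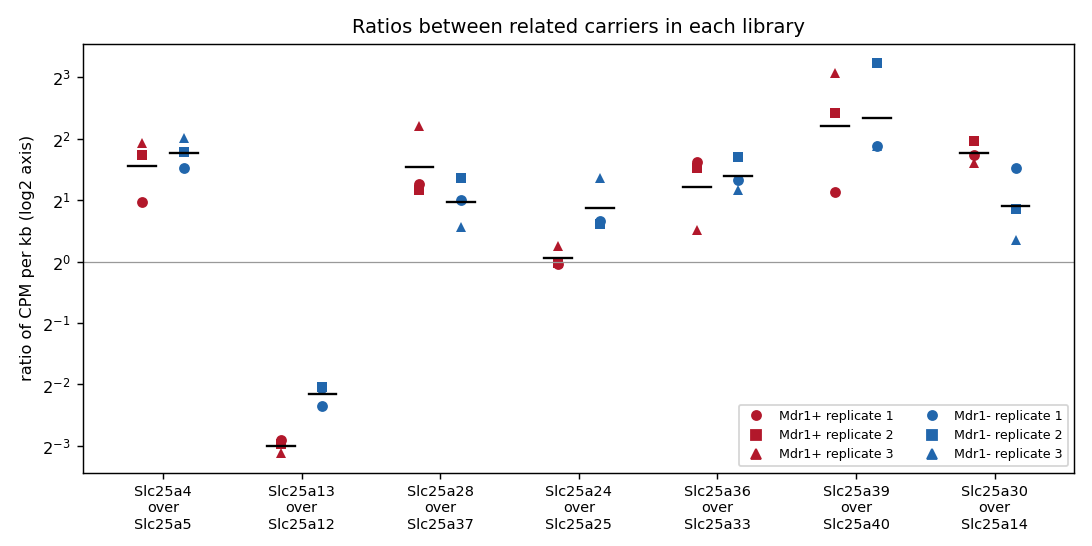
Ratio of CPM per kb between related carriers (y axis, log2 scale) in each Mdr1+ and Mdr1- library; symbols are replicates and black bars are means on the log scale. Slc25a13 over Slc25a12 and Slc25a24 over Slc25a25 are lower, and Slc25a30 over Slc25a14 higher, in all 3 Mdr1+ libraries than in any Mdr1- library, and the other 4 ratios overlap.

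Some carriers followed the replicate number. In 7 of the 38 tested members both libraries of replicate 1 were above the other 4, among them Slc25a3, Slc25a25 and Slc25a36, which is 18.4%, where all tested genes gave 11.9%. Both libraries of replicate 3 were the lowest in 7 members, or 18.4%, among them Slc25a12, Slc25a30 and Slc25a44, against 8.02% of all tested genes. The 7 also held Slc25a2, Slc25a27, Slc25a35 and Slc25a53, with 12, 2, 0 and 12 counts in the Mdr1+ library of replicate 3. In the Mdr1- library of replicate 3 these had 31, 4, 5 and 33 counts. Slc25a2 and Slc25a44 were in both sets. The other shares were nearer to or under those of all tested genes. For replicate 2 both libraries were highest in 15.8% of carriers and lowest in 13.2%, against 15.4% and 16.5% of all tested genes. Both libraries of replicate 1 were lowest in 7.89% of carriers, against 10.3%, and both of replicate 3 highest in 7.89%, against 7.25%. Within replicate numbers 1, 2 and 3, 22, 16 and 24 of the 38 carriers were lower in the Mdr1+ library. The same direction in all 3 numbers was seen for 10 members lower and 7 higher, with 24.6% and 28.2% over all tested genes.

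The machinery around the carriers was described from 4 lists. In edgeR's test without the block 0 genes of these lists were called in either direction, beside 1.95% lower and 0.275% higher over all tested genes. At an unadjusted p under 0.05, in either direction, 1 of 3 tested carrier-fold genes and 0 of 14 import genes passed. Of the other transporters 4 of 18 passed, and of the enzymes 5 of 28. Among these Sfxn3 and Odc1 were higher in Mdr1+ cells and the rest lower. All tested genes gave 7.22% lower and 4.63% higher at that threshold. DESeq2 called 1 carrier-fold gene and 3 other transporters lower, beside 3.55% of all tested genes. Among genes of the carrier fold with other names, Mtch1, an outer membrane relative of the carriers, had 39.5, 51.0 and 27.8 CPM in Mdr1+ cells, against 79.4, 100.6 and 79.6 CPM in Mdr1- cells. Every Mdr1+ library was below every Mdr1- library, with a log2 fold change of -1.11 ± 0.24 (edgeR adjusted p = 0.0502, and 0.0016 with the block). Ucp2, the uncoupling protein of lymphocytes, averaged 539.9 CPM among Mdr1+ samples and 530.3 CPM among Mdr1- samples and did not pass (0.03 ± 0.19), and Mtch2 had a log2 fold change of -0.27.

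Import of carriers into the inner membrane runs through the receptor Tomm70a, small Tim chaperones and the Timm22 complex. Of 14 tested genes of this route 0 rose and 1 fell with the block, beside 5.81% and 6.57% of all tested genes. The 1 that fell was Tomm6, a small subunit of the outer membrane pore (-0.73, adjusted p = 0.014). The list's median without the block was -0.15. Without replicate 3 the fit with the block called 3 of the 14 import genes lower, and without replicate 1 or replicate 2 it called 0. Over all genes it called 1347 lower without replicate 3, 694 without replicate 1 and 392 without replicate 2. The median became 0.06 when the Mdr1- library of replicate 2 was left out. Tomm70a had a log2 fold change of -0.12 and Timm22 one of -0.37, and neither passed.

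Of 18 tested other mitochondrial transporters 3 fell and 1 rose with the block, beside 6.57% and 5.81% of all tested genes. The list's median without the block was -0.25. Without replicate 3 the fit with the block called 5 of these transporters lower, and without replicate 2 it called 1 lower. Over all genes it called 1347 and 392 lower in these settings. Vdac1, a pore of the outer membrane, averaged 29.6 ± 4.4 CPM among Mdr1+ samples and 50.1 ± 5.8 CPM among Mdr1- samples (SD, n = 3 per group; edgeR adjusted p = 0.111, and 0.0093 with the block). Its relative Vdac2 had more CPM, 103.9 among Mdr1+ and 104.5 among Mdr1- samples, and did not pass (-0.01 ± 0.16, edgeR adjusted p = 0.986). Vdac3 had a log2 fold change of -0.29 and did not pass. Sfxn1, the serine transporter of the inner membrane, averaged 47.0 ± 4.3 CPM among Mdr1+ samples and 73.3 ± 3.2 CPM among Mdr1- samples (SD, n = 3 per group; adjusted p = 0.112, and 0.010 with the block), while its relative Sfxn3 averaged 68.0 ± 12.6 CPM among Mdr1+ samples and 40.5 ± 10.4 CPM among Mdr1- samples (SD, n = 3 per group; adjusted p = 0.035 with the block). Abcb8, an ABC transporter of the inner membrane, fell with the block as well (-1.09, adjusted p = 0.014). The pyruvate carrier subunit Mpc2 had a log2 fold change of 0.02.

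Of 28 tested enzymes that make or use what the carriers move, 4 fell and 2 rose with the block, beside 6.57% and 5.81% of all tested genes. The list's median without the block was -0.21. The number of these enzymes that fell with the block was 10 without replicate 3, 2 without replicate 1 and 0 without replicate 2. Over all genes it was 1347, 694 and 392. The next values are from all libraries. Those that fell were Cs, citrate synthase (144 ± 9.4 CPM among Mdr1+ samples and 202 ± 31.1 CPM among Mdr1- samples, SD, n = 3 per group), Mthfd2 of mitochondrial folate metabolism, Gpd2 of the glycerophosphate shuttle, and Mdh1, the cytosolic malate dehydrogenase of the malate-aspartate shuttle. Got1, the cytosolic aspartate aminotransferase, was among those that rose (0.42, adjusted p = 0.012).

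Cell cycle genes moved with the sorted fraction in the same libraries. Of 30 such genes 25 fell without the block and 29 with it, beside 1.95% and 6.57% of all tested genes. The list's median log2 fold change was -2.24 without the block. Leaving out the Mdr1- library of replicate 3, number 2 or number 3 lowered the first count to 16, 12 and 0, while the second was 22 to 29 without any 1 number. Their summed level was 1649, 1338 and 1354 CPM in Mdr1+ cells, against 4332, 6194 and 5789 CPM in Mdr1- cells. Mki67, a marker of cycling cells, averaged 212 ± 31.8 CPM among Mdr1+ samples and 1231 ± 336 CPM among Mdr1- samples (SD, n = 3 per group). The part of these differences in the lower level of Slc25a4, Slc25a24 and the other genes above was not tested.

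**Figure D5:**
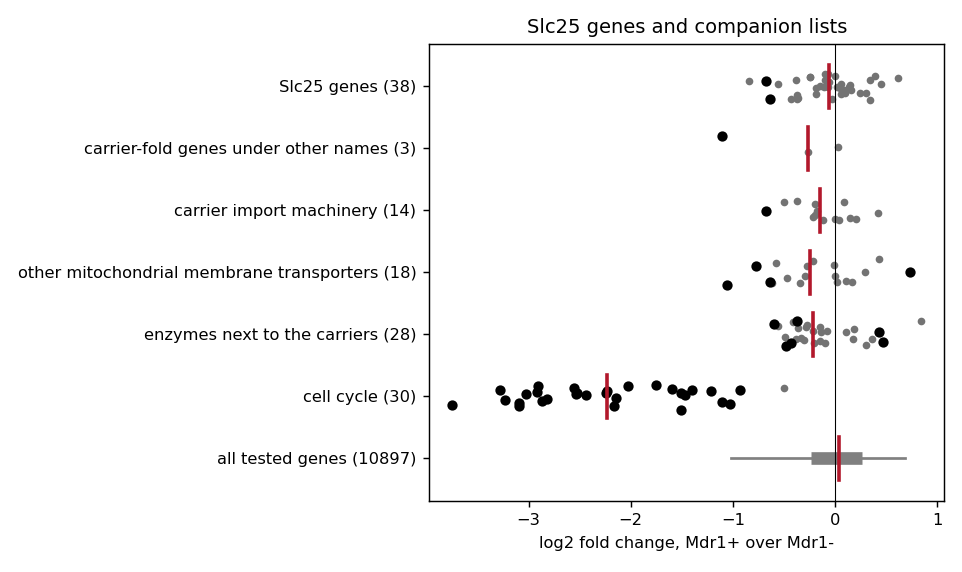
Every tested gene of the Slc25 family, 4 companion lists and the cell cycle list (rows, number tested in parentheses), placed by log2 fold change, Mdr1+ over Mdr1-, on the x axis; black points passed with the replicate block, red bars are medians, and for all tested genes the thick and thin grey bars span the middle 50% and 90% of genes. The cell cycle genes lie far to the left with a median of -2.24, and the carriers lie around 0 with a median of -0.06.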

How the data were processed

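Per the labels' protocols, total RNA of 3 Mdr1+ and 3 Mdr1- samples of sorted CD4+ T cells was made into libraries with a strand-preserving kit. The deposited values are raw read counts per gene symbol, in 1 table. The submitters' processing notes name TopHat, HTSeq, DESeq2 and the mm9 build; versions, gene models and the counter's strand option were not given in the sources used here. Reads lacking a unique position were 67.0% to 73.2%, and reads outside genes 13.2% to 19.7%, of the entries of replicates 1 and 2, and these summary lines were left out. The values of both replicate 3 columns were assigned to the 23366 gene names sorted without regard to case, which moved 19002 names. Total counts in genes were 2220691 to 20771456, so 3 counts equal 0.144 to 1.35 CPM.

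The members, the lists and the rule for named genes were chosen with earlier results of these data known. Counts were scaled by TMM, filtered with filterByExpr by group and tested with edgeR's quasi-likelihood method (edgeR 4.0.16, R 4.3.3), with group as the only term. P-values were adjusted by Benjamini and Hochberg over 10897 genes at a threshold of 0.05, and fold changes are Mdr1+ over Mdr1-. Deviations from the group means correlated at 0.41, 0.568 and 0.213 between libraries of the same number, across genes, against -0.361 to 0.0136 for other numbers. The labels do not say what a number stands for, but the numbers were taken to pair the libraries, and the value with the number as a block is printed where it changes a call. Alternatives were DESeq2 1.42.0, RLE size factors, other filters, the deposited order and leaving out libraries or numbers. Values in every library are given for members called in either fit, for up to 5 members in each direction with the largest difference without overlap, and for the 5 highest per kilobase; further members and companion genes, named as examples of their group, were chosen after their values were seen. Transcript lengths and shared 50-base stretches come from GENCODE vM21 on GRCm38 and were matched by symbol. Some genes are counted in the totals but are not reported here by name.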

Additional observations from a re-analysis of the deposited data

How the results depend on the processing

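The labels give both groups the same replicate numbers, and the fit with the replicate block called 0 carriers higher and 2 lower, where the fit without it called 0 and 0. DESeq2 called 1 carrier lower, and RLE size factors, no filter, the stricter filter, the deposited row order of replicate 3 and leaving out any library or number without the block called 0 in either direction. With the block and without 1 replicate number, 0 to 2 carriers were higher and 2 to 3 lower. The 2 higher ones, Slc25a30 and Slc25a36, and the third lower one, Slc25a13, were called without replicate 3. Over all genes that setting called 1131 higher and 1347 lower, beside 633 and 716 with the block and all libraries.

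Over all genes, 30 were called higher and 212 lower. These counts were 633 and 716 with the block, 113 and 387 with DESeq2, and 0 and 0 in the deposited order, while no filter on low counts gave 52 higher. Leaving out a library or number gave 0 to 15 higher and 0 to 196 lower without the block, with 0 and 0 without replicate 3, and 259 to 1131 higher and 392 to 1347 lower with it (436 and 694 without replicate 1). The median of the carriers was -0.16 to 0.03 over these alternatives, and above 0 without replicate 3. Slc25a4, Slc25a24 and Slc25a13 kept their direction under every alternative run. Slc25a26 turned to -0.93 in the deposited order, which gives replicate 3 values to other names, and Slc25a3 ran from -0.11 without the Mdr1+ library of replicate 1 to 0.21 without the Mdr1- library of replicate 1; for the second the cause was not tested. The shallowest library held 12 counts for Slc25a13 and 11 for Slc25a26, so differences in low carriers were not well resolved.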

Other observations

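Among the 9 members that were too low to test, 4 had any reads. Slc25a47 had 12, 26 and 0 counts in the Mdr1+ libraries of replicates 1, 2 and 3, against 18, 11 and 4 counts in the Mdr1- libraries. Slc25a34 had 3, 1 and 1 counts in Mdr1+ libraries, against 0, 1 and 0 counts in Mdr1- libraries. Slc25a18, a mitochondrial glutamate carrier, and Slc25a43 had 1 count each over all 6 libraries.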
